A study of Homo sapiens with 15 samples.

Results

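The miR-106b-25 and miR-106a-363 clusters are the paralogs of the oncogenic miR-17-92 cluster, and 10 of their mature arms were followed across all conditions. The arms were chosen by name, namely both arms of miR-106b, miR-93 and miR-25 from the first cluster, and miR-106a-5p, miR-18b-5p, miR-20b-5p and miR-363-3p from the second. All 10 were among the 2418 miRNAs counted after FTO knockdown, and 7 of the 10 were among the 2189 miRNAs counted in RIP-seq, out of 2424 miRNAs in all. In RIP-seq, hsa-miR-106a-5p, hsa-miR-18b-5p and hsa-miR-20b-5p had no row and were not analysed, so that of the 4 chosen miR-106a-363 arms hsa-miR-363-3p alone was followed there. The lowest row of the RIP-seq counts summed to 82 reads over its 9 libraries.

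Small RNA came from FTO1C1, FTO2D4 and FTO3C3, which are uninduced derivatives of a Flp-In T-REx version of HEK293, a human embryonic kidney line. FTO is a demethylase of N6-methyladenosine (m6A). For the knockdown, each line was transfected with 10 nM of scrambled siRNA or of FTO siRNA (a mix designed against FTO) with lipofectamine and harvested 48 h later, giving 3 libraries per group. For RIP-seq, small RNA of cells without treatment was precipitated with an anti-m6A antibody (m6A samples) or with an IgG isotype control antibody (IgG samples) and sequenced beside the RNA before precipitation (input), again with 3 libraries per group. Each line is 1 clone and gave 1 library per group, so the spread reported is that between the 3 clones. FTO mRNA has no value among miRNA counts, so the depletion of the targeted gene was not checked here.

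The knockdown libraries held 1991317 to 3876806 miRNA reads, the input libraries 1408702 to 1500357, the m6A libraries 569501 to 4973238 and the IgG libraries 186446 to 786688. The IgG library of FTO3C3 was the shallowest, and 3 reads there correspond to 16.1 RPM (reads per 1000000 miRNA reads, the normalized read number used throughout). A single miRNA, hsa-miR-6080, took 41.3% to 47.8% of the m6A reads and 58.0% to 71.6% of the IgG reads, against 15.5% to 28.4% of the input reads. Of 8 miRNAs typical of liver, blood, muscle, mesenchyme and neurons, 7 had a row in the knockdown counts and 6 in RIP-seq, and hsa-miR-145-5p had none in either. Their summed level was 125 to 190.3 RPM with scrambled siRNA, 144 to 193 RPM with FTO siRNA, 517 to 969 RPM in input, 1013 to 2104 RPM in m6A and 162 to 209 RPM in IgG samples. The myeloid hsa-miR-223-3p made up most of it in input and m6A, with mean levels of 584 and 1125 RPM. In the other groups the mesenchymal hsa-miR-143-3p was highest, at 62.1 RPM with scrambled siRNA, 65.5 RPM with FTO siRNA and 79.0 RPM in IgG samples. The part of these miRNAs in the RIP-seq results was not tested.

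A miRNA hairpin is cut by Drosha and Dicer into a duplex of a 5p and a 3p arm, of which one, the guide, is usually kept by Argonaute while the other, the passenger, is mostly degraded. The guide finds its mRNA targets chiefly through its seed, bases 2 to 8 from the 5′ end. The miR-17 family members of these clusters restrain cell cycle inhibitors and pro-apoptotic genes such as CDKN1A and BCL2L11, and MCM7, the host gene of miR-106b-25, encodes a helicase subunit that licenses DNA replication.

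The mature sequences, from RefSeq on GRCh38.p14, are shown with the seed in capitals because shared seeds and near-identical bodies decide which counts can be compared. The first 6 come from the miR-106b-25 cluster and the next 4 from the miR-106a-363 cluster, and hsa-miR-17-5p of the miR-17-92 cluster is the closest relative of hsa-miR-106a-5p.
hsa-miR-106b-5p: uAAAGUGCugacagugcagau
hsa-miR-106b-3p: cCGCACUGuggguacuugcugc
hsa-miR-93-5p: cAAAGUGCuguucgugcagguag
hsa-miR-93-3p: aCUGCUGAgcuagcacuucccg
hsa-miR-25-3p: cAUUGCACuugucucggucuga
hsa-miR-25-5p: aGGCGGAGacuugggcaauug
hsa-miR-106a-5p: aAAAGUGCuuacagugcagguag
hsa-miR-18b-5p: uAAGGUGCaucuagugcaguuag
hsa-miR-20b-5p: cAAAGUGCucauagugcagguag
hsa-miR-363-3p: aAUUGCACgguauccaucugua
hsa-miR-17-5p: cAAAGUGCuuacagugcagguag

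The miR-106b-25 hairpins lie on the minus strand of chromosome 7 within the MCM7 gene, MIR106B at chr7:100093993-100094074, MIR93 at chr7:100093768-100093847 and MIR25 at chr7:100093560-100093643. The miR-106a-363 hairpins lie on the minus strand of chromosome X within the host gene MIR106AHG, MIR106A at chrX:134170198-134170278, MIR18B at chrX:134170041-134170111, MIR20B at chrX:134169809-134169877 and MIR363 at chrX:134169378-134169452. Whether exonic or intronic was not taken from the annotation used here, which gives gene bounds only.

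Apart from the passenger arms named last, the members fell into 3 seed groups, and those of AAAGUGC and AUUGCAC held arms of both clusters. The seed AAAGUGC was shared by hsa-miR-106b-5p, hsa-miR-93-5p, hsa-miR-106a-5p and hsa-miR-20b-5p, and among the other listed miRNAs by hsa-miR-17-5p and hsa-miR-20a-5p. The seed AUUGCAC was shared by hsa-miR-25-3p and hsa-miR-363-3p with hsa-miR-92a-3p, hsa-miR-92b-3p, hsa-miR-32-5p and hsa-miR-367-3p. The seed AAGGUGC of hsa-miR-18b-5p was shared with hsa-miR-18a-5p and hsa-miR-4735-3p. The passenger arms hsa-miR-106b-3p, hsa-miR-93-3p and hsa-miR-25-5p each carried a seed found in no other listed miRNA with a RefSeq sequence.

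Reads were assigned to a miRNA by exact matches of at least 7 bases that together covered at least 17, so a relative with that much shared sequence can take or give reads. Counted from the 5′ end, hsa-miR-106a-5p differed from hsa-miR-17-5p by A1C, and 22 of its 23 bases lay in matches to it. For hsa-miR-18b-5p, 19 of 23 bases matched hsa-miR-18a-5p, with the difference U20A. For hsa-miR-20b-5p, 21 of 23 bases matched hsa-miR-20a-5p, with the differences C1U and C10U. These 3 counts are therefore uncertain. The abundant hsa-miR-93-5p reached the minimum with 4 other listed miRNAs and hsa-miR-106b-5p with 2, whereas hsa-miR-25-3p, hsa-miR-25-5p, hsa-miR-93-3p, hsa-miR-106b-3p and hsa-miR-363-3p reached it with none of the 2121 others compared. The closest seed relative of hsa-miR-25-3p, hsa-miR-92a-3p, covered 12 of its 22 bases.

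With scrambled siRNA the members spanned more than 3 orders of magnitude, and the 4 highest of the 10 belonged to the miR-106b-25 cluster. A read covers the whole of a mature arm, so RPM needs no division by length, but ligation and amplification can differ between arms and were not tested, so the order of members is one of reads. hsa-miR-25-3p had 19979, 18369 and 21103 RPM in FTO1C1, FTO2D4 and FTO3C3, a mean of 19817 ± 1374 (SD, n = 3), which placed it at rank 7 of all miRNAs. hsa-miR-93-5p followed with 3528 ± 360.1 RPM (rank 35). hsa-miR-106b-5p had 885 ± 76.0 RPM. These 3 guide arms did not overlap one another in any library.

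The next levels were close together. hsa-miR-106b-3p had 222 ± 14.5 RPM, hsa-miR-363-3p 191 ± 85.6 RPM and hsa-miR-25-5p 137 ± 7.38 RPM, and the values of hsa-miR-363-3p overlapped those of both neighbours. For hsa-miR-363-3p, FTO2D4 had 290.2 RPM against 146 RPM in FTO1C1 and 138 RPM in FTO3C3. The passenger hsa-miR-93-3p had 79.5 ± 24.9 RPM. The 3 other chosen arms of the miR-106a-363 cluster were low, with 12.7 ± 5.25 RPM for hsa-miR-20b-5p, 4.74 ± 1.49 RPM for hsa-miR-18b-5p and 3.86 ± 2.23 RPM for hsa-miR-106a-5p, which is 5 to 14 reads per library. The values of the last 2 overlapped.

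As shares of a library, the miR-106b-25 arms took 2.47% ± 0.166 (SD, n = 3) of the miRNA reads with scrambled siRNA and the 4 chosen miR-106a-363 arms 0.0213% ± 0.00886. The second sum leaves out hsa-miR-363-5p, hsa-miR-106a-3p, hsa-miR-18b-3p, hsa-miR-20b-3p and hsa-miR-92a-2-5p, at means of 31.2, 6.37, 3.98, 10.6 and 2.92 RPM with scrambled siRNA. Also left out are the mature hsa-miR-92a-3p and hsa-miR-19b-3p, which are encoded in both the miR-17-92 and the miR-106a-363 cluster. Their reads cannot be assigned to either. Within the AAAGUGC seed group, hsa-miR-93-5p supplied 47.0% to 58.0% of the reads and hsa-miR-106b-5p 10.8% to 16.2%, whereas hsa-miR-106a-5p supplied 0.0211% to 0.0967%. Within the AUUGCAC group, hsa-miR-25-3p supplied 25.9% to 35.6% and hsa-miR-363-3p 0.169% to 0.562%, with the remainder mostly on hsa-miR-92a-3p. The same order of members was found with FTO siRNA.

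**Figure D1:**
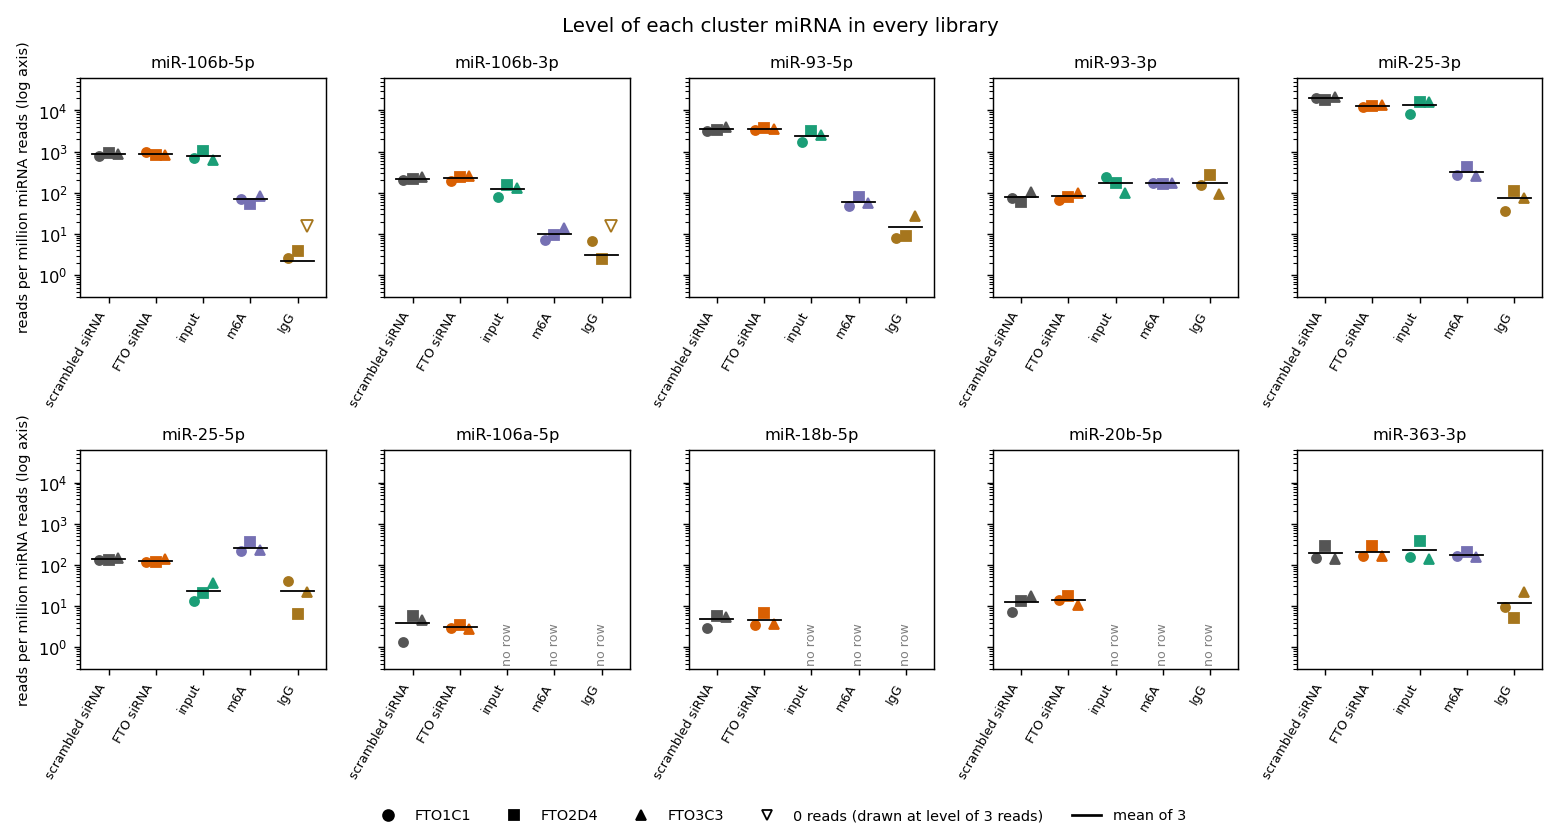
Level of each of the 10 members in RPM (log axis) in every library, by condition, with 1 symbol per cell line and a bar at the mean of 3; a library with 0 reads is drawn as an open triangle at the level of 3 reads. hsa-miR-25-3p was highest with scrambled siRNA at 19817 RPM, hsa-miR-106b-5p, hsa-miR-93-5p and hsa-miR-25-3p were lower in m6A and IgG samples than in input, and hsa-miR-93-3p stayed between 96.5 and 269 RPM in all 9 RIP-seq libraries.

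The knockdown comparison asked whether depletion of the demethylase shifts the steady state of these miRNAs. One member fell, namely hsa-miR-25-3p, which targets mRNAs through the miR-92 seed. It had 12399, 12828 and 13681 RPM in FTO1C1, FTO2D4 and FTO3C3 under FTO siRNA, a mean of 12969 ± 653 (SD, n = 3), against 19817 ± 1374 with scrambled siRNA. All 3 FTO siRNA libraries lay below all 3 scrambled siRNA libraries, and the within-line ratios were 0.621, 0.698 and 0.648. The log2 fold change was -0.61 (SE 0.12), a fall of 1.53-fold, with an adjusted p of 0.0246 by edgeR, in a quasi-likelihood model blocked by line. Fewer cells carrying a miRNA and less miRNA per cell cannot be told apart in such bulk RNA.

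By this test 1 of the 10 members was called lower, beside 0.505% of all 2374 miRNAs tested. The call was lost without FTO1C1 (log2 fold change -0.57, adjusted p = 0.204 by edgeR) and without the cell line block (adjusted p = 0.0843 by edgeR). The median log2 fold change of all miRNAs tested was 0.29 and that of the members 0.014. With TMM factors, which bring the median of all to -0.00035, edgeR called 21 miRNAs higher and 34 lower in place of 118 higher and 12 lower, and hsa-miR-25-3p was at -0.90 (edgeR adjusted p = 0.0184).

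The other 9 members did not pass the test. For hsa-miR-93-5p, a guide processed from the same primary transcript, the levels were 3242, 3411 and 3933 RPM with scrambled siRNA, against 3349, 3831 and 3578 RPM under FTO siRNA, and the groups overlapped, with a log2 fold change of 0.026 (SE 0.13). hsa-miR-106b-5p had 802, 951 and 903 RPM against 972, 851 and 835 RPM, also overlapping, with a log2 fold change of 0.0016 (SE 0.15). The passenger arms of the chromosome 7 cluster were at 0.044 (SE 0.15) for hsa-miR-106b-3p, 0.073 (SE 0.20) for hsa-miR-93-3p and -0.15 (SE 0.17) for hsa-miR-25-5p. Relative to the median of all miRNAs these values were lower by 0.29, and several near 0 change sign with TMM factors.

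Ratios within a library do not depend on its total. For each read of hsa-miR-93-5p there were 6.16, 5.39 and 5.37 reads of hsa-miR-25-3p with scrambled siRNA in the 3 lines, against 3.70, 3.35 and 3.82 under FTO siRNA, with no overlap of the groups. For each read of hsa-miR-106b-5p there were 24.9, 19.3 and 23.4 reads of hsa-miR-25-3p with scrambled siRNA, against 12.8, 15.1 and 16.4 under FTO siRNA. The ratio of hsa-miR-106b-5p to hsa-miR-93-5p moved less, from 0.247, 0.279 and 0.230 reads per read to 0.290, 0.222 and 0.233, and overlapped. For each read of hsa-miR-92a-3p there were 0.448, 0.625 and 0.372 reads of hsa-miR-25-3p with scrambled siRNA, against 0.243, 0.383 and 0.265 under FTO siRNA, lower in each of the 3 lines although the groups overlapped. In an exact sign-flip test 3 pairs cannot go below a two-sided p of 0.25, so these ratios are given without a test.

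Among the chosen miR-106a-363 arms the values after knockdown were set by few reads, apart from hsa-miR-363-3p. That arm had 168, 282 and 164 RPM with FTO siRNA, a mean of 205 ± 67.1 (SD, n = 3), and a log2 fold change of 0.13 (SE 0.16). hsa-miR-20b-5p was higher in 2 of 3 lines, at 14.1, 17.6 and 10.6 RPM against 7.15, 13.4 and 17.6 RPM, with a log2 fold change of 0.21 (SE 0.31). hsa-miR-18b-5p had 12 to 24 reads and hsa-miR-106a-5p 10 to 12 reads per FTO siRNA library, with log2 fold changes of -0.014 (SE 0.33) and -0.24 (SE 0.43). At this depth the 95% counting intervals of the within-line ratios of hsa-miR-106a-5p ran from 0.236 to 7.80, and its ratio of 2.09 in FTO1C1 had an interval of 0.651 to 7.80.

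**Figure D2:**
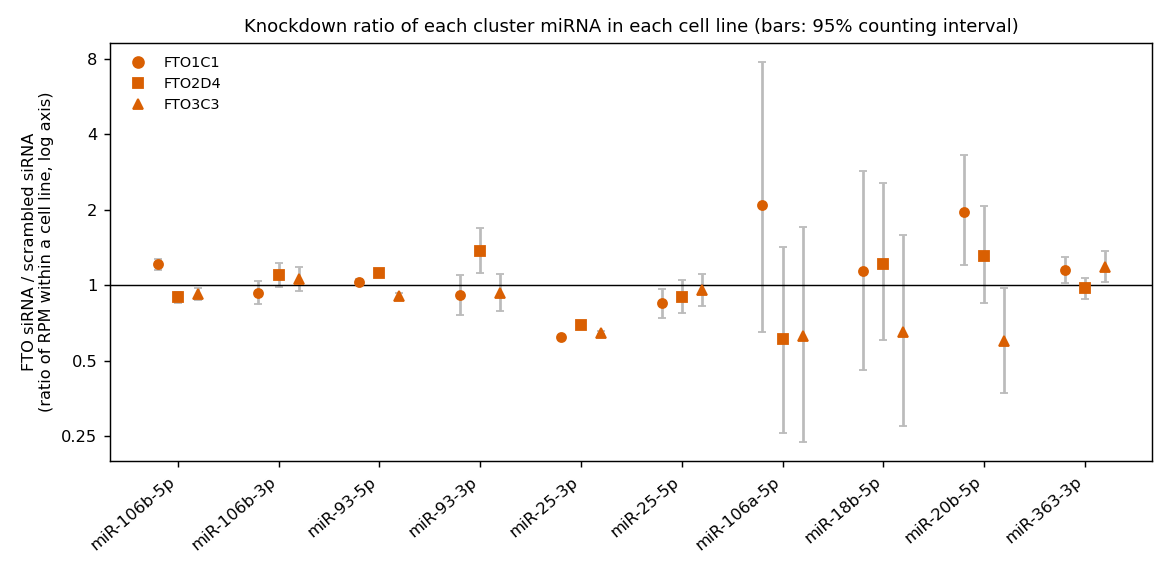
Ratio of RPM with FTO siRNA to RPM with scrambled siRNA within each cell line (log axis) for the 10 members, with exact 95% intervals for counting error and a line at 1. hsa-miR-25-3p lay at 0.621 to 0.698 in the 3 lines, and the intervals of hsa-miR-106a-5p, hsa-miR-18b-5p and hsa-miR-20b-5p were wide.

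By the fold rule, which asks for at least 15 RPM in the higher group and a mean within-line ratio over 2 or below its inverse, 0 members passed. At 1.5-fold 1 member passed, hsa-miR-25-3p, whose mean ratio was 0.656 ± 0.0394 (SD, n = 3). The share of all miRNAs passing the fold rule is not given here, so neither count is set against it. Of 18 relatives, the arms of miR-17-92 and the other arms of miR-106a-363, 17 were tested and 1 was called lower by edgeR. This was hsa-miR-92a-1-5p, the passenger arm beside hsa-miR-92a-3p, named here after its value was seen, with a log2 fold change of -0.99 (SE 0.23, edgeR adjusted p = 0.0362). The relatives that share a seed with a member were not called, with log2 fold changes of -0.060 for hsa-miR-17-5p, -0.030 for hsa-miR-20a-5p, -0.11 for hsa-miR-18a-5p and 0.083 for hsa-miR-92a-3p.

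RIP-seq asked which miRNAs the anti-m6A antibody holds back beyond the control antibody. In the input the order of the guides was as in the knockdown libraries, with hsa-miR-25-3p at 8189, 16487 and 15845 RPM in FTO1C1, FTO2D4 and FTO3C3. Its passenger hsa-miR-25-5p had 13.5, 20.6 and 37.3 RPM. The miR-106b-25 arms together made up 1.71% ± 0.541 (SD, n = 3) of the input reads, 0.0895% ± 0.0159 of the m6A reads and 0.0292% ± 0.00987 of the IgG reads. hsa-miR-363-3p made up 0.0224% ± 0.0131 of the input, 0.0176% ± 0.00259 of the m6A and 0.00120% ± 0.000848 of the IgG reads.

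Between m6A and IgG samples, 5 of the 6 members tested were called higher in m6A samples, beside 38.6% of all 2054 miRNAs tested, where 0.83 was the median log2 value over all. hsa-miR-363-3p had 167, 205 and 155 RPM in m6A samples and 9.44, 5.08 and 21.5 RPM in IgG samples, with no overlap. Its log2 fold change was 4.19 (SE 0.51, edgeR adjusted p = 0.000283). hsa-miR-106b-5p had 70.2, 52.8 and 86.3 RPM in m6A samples, and its 2, 3 and 0 IgG reads gave 2.70, 3.81 and 0 RPM. Its within-line ratio was 26.0 in FTO1C1 (95% counting interval 6.75 to 222) and 13.9 in FTO2D4 (4.56 to 68.8). In FTO3C3 the ratio was 5.36 with the 0 IgG reads set to 3 reads. The 95% counting interval there had a lower limit of 4.34 and no upper limit. The fitted log2 fold change was 4.46 (SE 0.56, edgeR adjusted p = 0.00035), which for so few IgG reads depends on the prior count.

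The miR-25 arms were both higher in m6A samples. The passenger hsa-miR-25-5p had 214, 353 and 227 RPM in m6A samples against 41.8, 6.36 and 21.5 RPM in IgG samples, with no overlap. Its log2 fold change was 3.68 (SE 0.62, edgeR adjusted p = 0.00161). The guide hsa-miR-25-3p had 277, 417 and 263 RPM against 36.4, 113 and 75.1 RPM, again with no overlap, and a log2 fold change of 2.20 (SE 0.35, edgeR adjusted p = 0.00118). IgG reads of hsa-miR-25-5p numbered 31, 5 and 4, and its within-line ratios ranged from 5.12 to 55.5.

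The arms of miR-93 differed from each other. hsa-miR-93-5p had 49.2, 77.8 and 57.5 RPM in m6A samples and 8.09, 8.90 and 26.8 RPM in IgG samples, from 5 to 7 IgG reads. Its log2 fold change of 2.37 (SE 0.49, edgeR adjusted p = 0.00457) was not called without FTO2D4 (1.89, edgeR adjusted p = 0.0708). Its passenger hsa-miR-93-3p had 172, 168 and 169 RPM in m6A samples and 155, 269 and 96.5 RPM in IgG samples, which overlapped, with a log2 fold change of 0.051 (SE 0.36). With TMM factors hsa-miR-93-3p turned to -0.70 and was not called. hsa-miR-106b-3p had 4, 13 and 68 m6A reads and 5, 2 and 0 IgG reads and did not pass the filter on low counts. TMM factors brought the median of all miRNAs to 0.063 and changed the split of calls from 792 higher and 26 lower to 453 higher and 302 lower, and the same number of members, 5, was called. Without FTO3C3, whose IgG library was the shallowest, 5 members were called as well.

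By the ratio rule of the study's methods (at least 100 RPM in the m6A samples, here in all 3, and a mean m6A to IgG ratio of at least 2), 3 of the 7 members listed in RIP-seq were enriched, beside 11.8% of all 2189 miRNAs. The mean ratios were 23.7 ± 27.7 (SD, n = 3) for hsa-miR-25-5p, 21.7 ± 16.9 for hsa-miR-363-3p and 4.94 ± 2.32 for hsa-miR-25-3p. The study's own list of enriched miRNAs holds hsa-miR-363-3p and hsa-miR-25-3p but not hsa-miR-25-5p, and the reason was not tested. hsa-miR-106b-5p and hsa-miR-93-5p had mean ratios of 15.1 and 5.65 but stayed under 100 RPM in m6A samples. hsa-miR-93-3p passed the level with a mean ratio of 1.16. With a cutoff of 15 RPM the number enriched was 5, a count for which no share of all miRNAs is given.

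Set against the input, the m6A samples held less of both miR-106b arms, hsa-miR-93-5p and hsa-miR-25-3p and more of the passenger hsa-miR-25-5p. By edgeR 4 of 7 members were called lower, beside 10.5% of all 2174 miRNAs tested, and 1 was called higher, beside 66.8%. hsa-miR-25-3p was at a log2 fold change of -5.37 (SE 0.50, edgeR adjusted p = 1.21e-09), and its m6A to input ratios were 0.0339, 0.0253 and 0.0166. hsa-miR-93-5p fell from 1697, 3114 and 2601 RPM in the input, a log2 fold change of -5.32 (SE 0.47, edgeR adjusted p = 6.32e-10). hsa-miR-106b-5p fell from 692, 1039.9 and 639 RPM, with -3.48 (SE 0.44, edgeR adjusted p = 1.12e-07). Its partner hsa-miR-106b-3p fell from 78.1, 158 and 135 RPM to 7.02, 9.54 and 13.7 RPM, with -3.59 (SE 0.46, edgeR adjusted p = 1.44e-07). None of these 4 overlapped between input and m6A samples.

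The member called higher was hsa-miR-25-5p, whose m6A to input ratios were 15.9, 17.2 and 6.09. Its log2 fold change was 3.54 (SE 0.46, edgeR adjusted p = 1.39e-07), which is 1.88 above the median of all miRNAs of 1.65. hsa-miR-93-3p had 249, 175 and 99.3 RPM in the input and did not pass the test, with a log2 fold change of 0.060 (SE 0.40). hsa-miR-363-3p had 155, 375 and 143 RPM in the input and did not pass it either, with -0.22 (SE 0.39). With TMM factors, which bring the median of all to 0.10, edgeR called 575 miRNAs higher and 614 lower in place of 1452 and 229. Both arms were then called lower, at -1.48 for hsa-miR-93-3p and -1.77 for hsa-miR-363-3p, and hsa-miR-25-5p was still higher at 1.98.

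The control antibody gave the background of the precipitation. In IgG samples 5 of 7 members were called lower than in the input, beside 21.8% of all 1941 miRNAs tested. The log2 fold changes were -8.16 (SE 0.65) for hsa-miR-106b-5p, -7.66 (SE 0.56) for hsa-miR-93-5p, -7.55 (SE 0.49) for hsa-miR-25-3p, -4.85 (SE 0.65) for hsa-miR-106b-3p and -4.44 (SE 0.58) for hsa-miR-363-3p. This fit estimated an infinite prior degree of freedom, which treats 1 spread as common to all miRNAs. Over the alternatives the largest adjusted p of these 5 by edgeR or DESeq2 was 3.57e-06. hsa-miR-93-3p was at -0.032 (SE 0.43) and hsa-miR-25-5p at -0.085 (SE 0.55), neither called. TMM factors moved the split of calls over all miRNAs from 714 higher and 423 lower to 559 and 586.

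The m6A and IgG comparisons with input share the input libraries, so their values are given side by side only. hsa-miR-25-5p was at 3.54 in m6A and -0.085 in IgG samples, and hsa-miR-363-3p at -0.22 and -4.44. hsa-miR-25-3p was at -5.37 and -7.55.

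**Figure D3:**
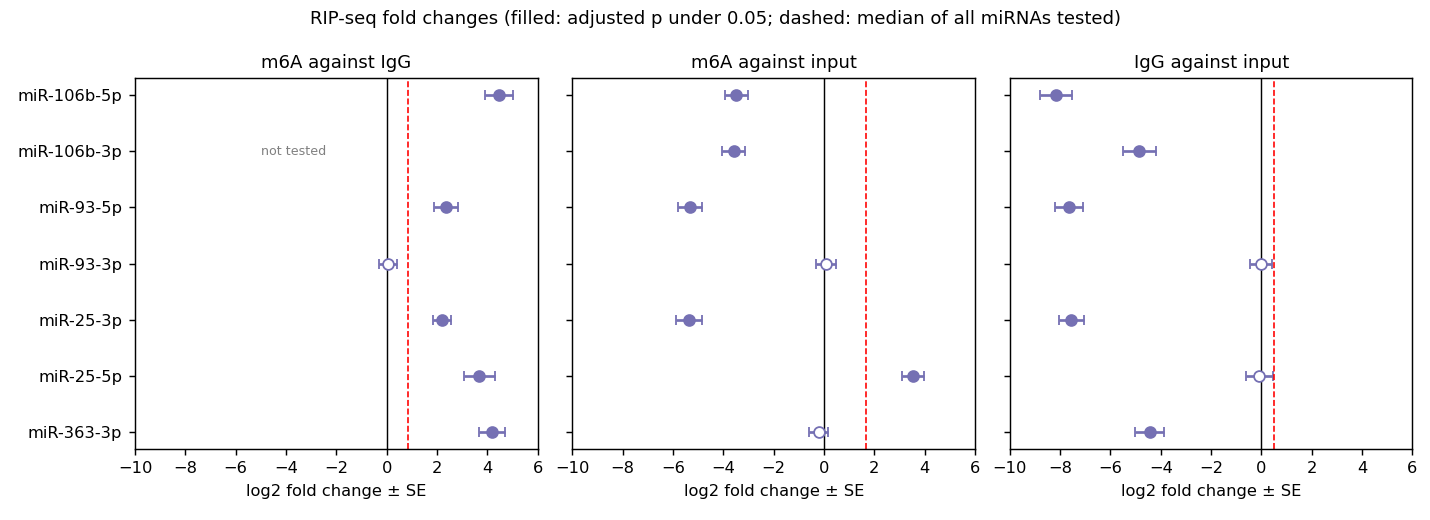
Log2 fold change with its SE (horizontal axis) of the 7 members listed in RIP-seq, for m6A against IgG, m6A against input and IgG against input, filled where the edgeR adjusted p was under 0.05, with the median of all miRNAs tested as a dashed line. hsa-miR-25-5p lay right of 0 against both IgG (3.68) and input (3.54), whereas the guide hsa-miR-25-3p lay right of 0 against IgG (2.20) and left of it against input (-5.37).

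The balance of the arms of a hairpin is free of the library total. For miR-25 the 5p arm held 0.125% to 0.235% of the hairpin's reads in the input, 43.6% to 46.3% in m6A samples and 5.32% to 53.4% in IgG samples, the last from 18 to 94 reads. For miR-93 the 5p arm held 87.2% to 96.3% in the input, 22.2% to 31.6% in m6A samples and 3.20% to 21.7% in IgG samples. Input and m6A samples thus did not overlap for either hairpin, and in both the arm with fewer reads in the input had a larger share of the hairpin in m6A samples. For miR-106b the 5p arm held 82.6% to 89.9% in the input and 84.7% to 90.9% in m6A samples, which overlapped, and the IgG samples had 5 and 7 reads in FTO2D4 and FTO1C1 and 0 in FTO3C3.

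For miR-363 the 5p arm, hsa-miR-363-5p, held 6.64% to 20.7% in the input, 27.5% to 33.7% in m6A samples and 76.5% to 92.0% in IgG samples. With scrambled siRNA the 5p arm of miR-25 held 0.672% to 0.706% and with FTO siRNA 0.910% to 1.01%, without overlap. The 5p shares of miR-93 overlapped between these groups, at 97.4% to 98.3% and 97.3% to 98.0%.

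**Figure D4:**
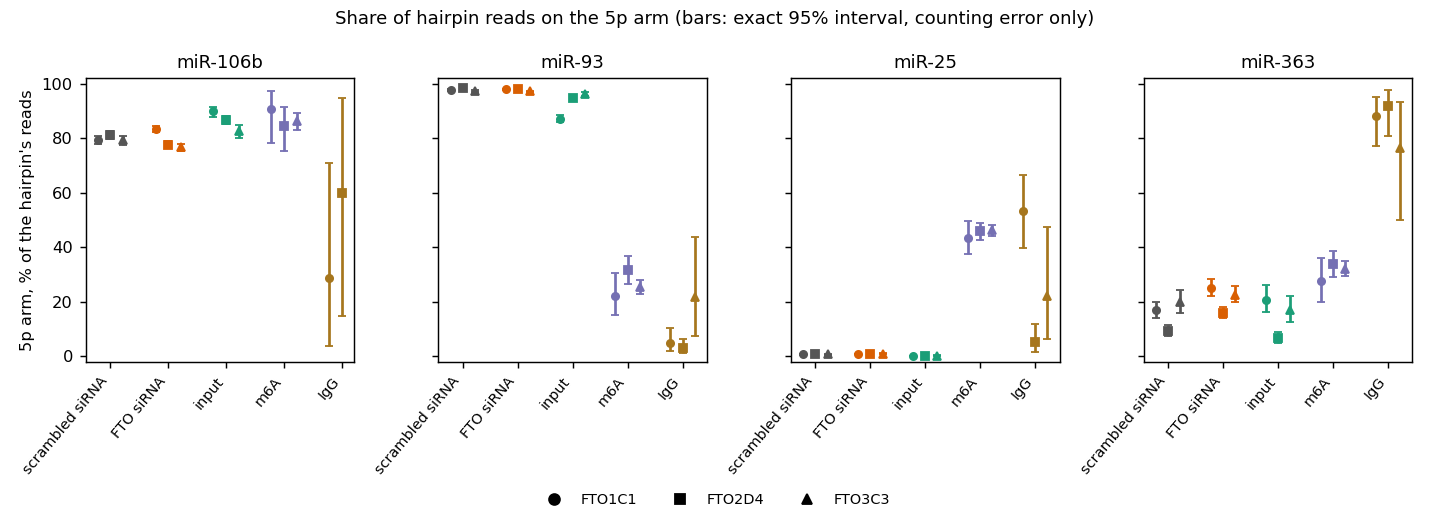
Share of each hairpin's reads on the 5p arm, in percent, in every library by condition, with exact 95% binomial intervals that cover counting error only. The miR-25 5p arm held at most 0.235% in the input and 43.6% to 46.3% in m6A samples, the miR-93 5p arm at least 87.2% and at most 31.6%, and the miR-106b shares overlapped.

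Inside the seed groups, the members kept different shares after precipitation. In the AUUGCAC group hsa-miR-25-3p held 27.2% to 37.5% of the input reads and 11.9% to 19.1% of the m6A reads, while hsa-miR-363-3p held 0.246% to 0.854% of the input and 7.17% to 9.40% of the m6A reads. For every 100 reads of hsa-miR-25-3p there were thus 1.89, 2.28 and 0.904 reads of hsa-miR-363-3p in the input and 60.1, 49.1 and 58.9 in m6A samples, although both carry the same seed. In the AAAGUGC group hsa-miR-106b-5p held 13.9% to 19.9% of the input and 27.9% to 43.6% of the m6A reads, and hsa-miR-93-5p 48.8% to 59.5% and 26.4% to 41.1%.

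Among the relatives, 7 of 10 tested were called higher in m6A than in IgG samples, 8 of 15 lower and 3 of 15 higher in m6A than in input, and 10 of 14 lower in IgG than in input. hsa-miR-17-5p, which shares the seed of hsa-miR-106b-5p, was at 4.75 (SE 0.73) against IgG and -3.97 (SE 0.44) against input. hsa-miR-92a-3p, which shares that of hsa-miR-25-3p, was at 1.89 (SE 0.32) against IgG and -4.54 (SE 0.51) against input. Of the other seed relatives, hsa-miR-20a-5p was at -5.04 (SE 0.47) and hsa-miR-18a-5p at -4.65 (SE 0.47) against input.

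The m6A consensus of mRNA is built on the core AAC or GAC, with the adenosine before the C methylated. Searched on the miRNA strand only, the core was present in 2 of the 10 members, in hsa-miR-106b-5p from base 10 and in hsa-miR-25-5p from base 8, and in 37.5% of the 2122 listed miRNAs with a RefSeq sequence. With A or G before and A, C or U after the core, 1 member, hsa-miR-25-5p, held the motif from base 7, and 21.6% of the listed miRNAs did. A match is a description of the letters only, and the enriched hsa-miR-363-3p and hsa-miR-25-3p held neither.

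The profiles of hsa-miR-25-3p and hsa-miR-363-3p across all 15 libraries were compared with 560 other miRNAs, by the root mean square difference of log2(RPM + 1) values centred on their own mean. These candidates were in both sets of counts and had at least 10 reads in each library. Candidates with few IgG reads were thus left out, such as hsa-miR-17-5p with 0 to 3, and hsa-miR-363-3p itself had 4 to 7. Nearest to hsa-miR-25-3p were hsa-miR-186-5p at 0.457, hsa-miR-30e-5p at 0.550 and hsa-miR-92a-3p at 0.589, with a median of 4.11 over all candidates. Nearest to hsa-miR-363-3p were hsa-miR-181b-5p at 0.520, hsa-miR-1277-3p at 0.639 and hsa-miR-938 at 0.692, with a median of 2.25.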

How the data were processed

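The authors deposited read counts per mature miRNA, without normalization, for 6 knockdown and 9 RIP-seq libraries. Per the study's methods, cutadapt removed adapters (an overlap of 4 bp and an error of 20% allowed), and reads between 16 and 28 bp long were assigned to miRBase release 20 entries through exact matches of 7 or more bases that covered 17 or more, an ambiguous read going to the best match. Counts were divided by the library's miRNA reads to give RPM. Rows with few reads are not listed, so the tables are incomplete at low levels.

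Testing used edgeR 4.0.16 in R 4.3.3 (glmQLFit, glmQLFTest), after filterByExpr at a minimum of 10 reads, with total miRNA reads as library sizes, cell line as blocking factor and Benjamini-Hochberg adjustment over all miRNAs tested (threshold 0.05). Each fit held only the 6 libraries of its 2 groups and was tested on simulated data. The SE beside a log2 fold change was derived, as its absolute value divided by the square root of the quasi-likelihood F statistic. DESeq2 1.42.0, TMM factors, other filters, totals and models, and each cell line left out were alternatives. Python 3.11.15 with scipy 1.17.1, pandas 2.3.3, numpy 2.4.6 and, for plots, matplotlib 3.10.9 served for the rest. In ratios, 0 IgG reads were replaced by 3. Intervals are exact binomial ones at 95% and cover counting error only, since PCR copies are not independent molecules.

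Libraries of the same cell line come from the same clone, which is the pairing. After subtracting group means, scrambled and FTO siRNA libraries of a line correlated at 0.189, 0.121 and 0.160, m6A with IgG libraries at 0.0117 to 0.0370, m6A with input libraries at -0.0711 to -0.0284, and IgG with input libraries at -0.0273 to 0.0661, so the RIP-seq libraries of a line showed little shared deviation. Libraries of a group differed beyond sampling noise (chi-square per degree of freedom 7.79 to 166).

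The named miRNAs were all 10 members, relatives of the miR-17-92 and miR-106a-363 clusters, given by counts and by value where they share a seed with a member, and the 3 nearest profiles of the most abundant member of each cluster. RefSeq (GRCh38.p14) sequences matched all 10 members and 2122 of the 2418 miRNAs in the knockdown counts. The members and lists were chosen with earlier results of these data known.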

Additional observations from a re-analysis of the deposited data

How the results depend on the processing

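The members called in RIP-seq kept their sign under every alternative run, and hsa-miR-25-3p stayed negative after knockdown. The number of members called after knockdown, 1, became 0 in the fit with no replicate block, although the cell line pairs the libraries, and was 0 to 1 with a cell line left out. It was 0 without FTO1C1, where edgeR called 0 of 2363 miRNAs, with 327 at an unadjusted p under 0.05, hsa-miR-25-3p among them. DESeq2 called it, and adjusted p-values were given for 7 of the 10 members there. The calls over all miRNAs after knockdown were 118 higher and 12 lower, 33 and 58 with DESeq2, 87 and 39 without FTO2D4, 169 and 21 with totals without hsa-miR-10a-5p, and 37 and 4 without the block. Against input, TMM factors raised the m6A calls lower from 229 to 614. At 1.5-fold 1 member passed the knockdown rule, and at 15 RPM 5 passed the ratio rule, both counts without a share of all miRNAs. The cause was not tested.

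Most other changes were of sign in members not called in the reported test. Changes of call without a change of sign were also found. For m6A against IgG, hsa-miR-93-5p lost its call without FTO2D4 (edgeR adjusted p = 0.0708). For m6A against input, hsa-miR-363-3p was called lower with TMM factors and with DESeq2, with a lowest log2 fold change of -1.79. After knockdown, TMM factors gave -0.29 for hsa-miR-106b-5p, -0.25 for hsa-miR-106b-3p, -0.26 for hsa-miR-93-5p, -0.22 for hsa-miR-93-3p, -0.081 for hsa-miR-20b-5p and -0.16 for hsa-miR-363-3p. DESeq2 gave -0.29, -0.25, -0.27 and -0.22 for the first 4 and -0.16 for hsa-miR-363-3p. With no replicate block hsa-miR-18b-5p was at 0.032, and with totals without hsa-miR-10a-5p hsa-miR-106b-5p was at -0.012. With a cell line left out, the ranges were -0.14 to 0.083 for hsa-miR-106b-5p, -0.0056 to 0.12 for hsa-miR-106b-3p, -0.045 to 0.11 for hsa-miR-93-5p, -0.11 to 0.18 for hsa-miR-93-3p, -0.69 to 0.093 for hsa-miR-106a-5p, -0.22 to 0.24 for hsa-miR-18b-5p and -0.15 to 0.67 for hsa-miR-20b-5p.

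For m6A against IgG, hsa-miR-93-3p was at -0.70 with TMM factors, -0.73 with DESeq2, -0.063 with no replicate block, -0.63 with totals without hsa-miR-6080, and -0.27 to 0.46 with a cell line left out. For m6A against input, hsa-miR-93-3p was at -1.48 with TMM factors, -1.51 with DESeq2, -0.040 with no replicate block and -0.30 to 0.35 with a line left out. hsa-miR-363-3p was at 0.24 with totals without hsa-miR-6080 and -0.39 to 0.11 with a line left out. For IgG against input, hsa-miR-93-3p was at 0.031 with no replicate block, 1.11 with totals without hsa-miR-6080, 0.00072 in 1 fit of all 9 libraries and -0.40 to 0.31 with a line left out. hsa-miR-25-5p was at 1.08, 0.012 and -1.26 to 0.63 in the last 3. Totals without hsa-miR-6080 called both of these arms higher in IgG samples. IgG depth, 0 to 7 reads for hsa-miR-106b-5p, hsa-miR-106b-3p, hsa-miR-93-5p and hsa-miR-363-3p, limits the precision of their m6A to IgG ratios.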
